A study of Mus musculus with 13 samples.

Results

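Cholesterol synthesis and its sterol regulation were followed through 33 genes in mouse eosinophils of the lamina propria of the small intestine, among 25553 genes named on either array model. The list was a textbook one of 19 enzymes of the pathway, 5 regulators of the SREBP system, the sterol carrier Stard4, 5 genes of the LXR system and 3 enzymes of fatty acid synthesis. It was selected on pathway membership with earlier results of the same arrays in view, namely log2 differences between mCherry+ and mCherry- and between the single arrays, so the values below describe these genes and their p-values are no independent support for the choice. Each gene was read from its brightest probe set by the mean over all arrays of a table, without regard to group, and all 33 were found in both tables.

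The study used 13 microarrays. In the reporter sort, 5 arrays held mCherry+ and 5 held mCherry- eosinophils, all from Clec4a4-KI mCherry mice, in which the red fluorescent protein mCherry marks cells using the gene of Clec4a4, a C-type lectin receptor of myeloid cells. In the other sort, 1 array each held Clec4a4- eosinophils labelled Ahr KO, that is, without the aryl hydrocarbon receptor AHR, and the 2 subsets, Clec4a4+ and Clec4a4-, from wild-type (WT) animals. The labels name biological replicates in the reporter sort but give no age, sex, pooling or mouse for any array, so p-values reflect only how these samples vary, which may be technical. Values are log2 intensities, on which a difference of 1 is a 2-fold change; the tables come from different array models normalized separately, so every difference was taken within a table. Because these are bulk samples, fewer cells of a type and less RNA per cell cannot be told apart.

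Cells build cholesterol from acetyl-CoA through mevalonate, farnesyl diphosphate, squalene and lanosterol. When sterols in the endoplasmic reticulum are low, SCAP escorts the transcription factor SREBP-2 to the Golgi, where it is cut and freed to switch on nearly every enzyme of this path; when sterols are plentiful, the INSIG proteins hold SCAP back. Oxysterols act in the opposite sense through the LXR receptors, which raise cholesterol exporters such as Abca1 and Abcg1. Eosinophils are granulocytes that reside in large numbers in the small intestine.

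SREBP-2 acts on promoters together with the factor NF-Y, so the promoter windows of the 5 members that passed the test in both fits described below are shown, from 250 bases before to 50 bases after a RefSeq start site (GRCm38.p6), 5′ to 3′ on the gene's strand. Capitals mark CCAAT or its reverse complement ATTGG, the core bound by NF-Y, and in Hmgcs1 also TCACCCCAC, a match to the sterol response element searched as TCACNCCAC. Pmvk has 2 listed start sites and both windows are given. The second holds an ATG with a long reading frame before its listed start site, so it may lie within the gene. It is counted with the other windows below.
Hmgcs1, chr13:119690101-119690400, plus strand: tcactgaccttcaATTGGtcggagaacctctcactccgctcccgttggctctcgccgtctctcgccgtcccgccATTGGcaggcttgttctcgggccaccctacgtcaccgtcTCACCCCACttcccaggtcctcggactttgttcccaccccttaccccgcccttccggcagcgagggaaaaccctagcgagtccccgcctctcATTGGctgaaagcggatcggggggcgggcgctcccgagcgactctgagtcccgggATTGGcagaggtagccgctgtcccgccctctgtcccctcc
Pmvk, chr3:89454291-89454590, plus strand: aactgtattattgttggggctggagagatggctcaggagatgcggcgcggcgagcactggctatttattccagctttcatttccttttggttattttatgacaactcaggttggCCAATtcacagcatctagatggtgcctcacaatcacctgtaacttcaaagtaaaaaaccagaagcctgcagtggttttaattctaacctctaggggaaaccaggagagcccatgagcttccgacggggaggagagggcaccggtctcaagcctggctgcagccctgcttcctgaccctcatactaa
Pmvk, chr3:89459321-89459620, plus strand: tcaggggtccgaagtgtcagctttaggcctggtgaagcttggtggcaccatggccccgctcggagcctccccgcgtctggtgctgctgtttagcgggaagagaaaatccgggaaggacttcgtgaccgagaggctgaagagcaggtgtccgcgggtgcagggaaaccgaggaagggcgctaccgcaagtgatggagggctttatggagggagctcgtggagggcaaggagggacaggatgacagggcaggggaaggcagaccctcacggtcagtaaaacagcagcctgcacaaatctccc
Cyp51, chr5:4104648-4104947, minus strand: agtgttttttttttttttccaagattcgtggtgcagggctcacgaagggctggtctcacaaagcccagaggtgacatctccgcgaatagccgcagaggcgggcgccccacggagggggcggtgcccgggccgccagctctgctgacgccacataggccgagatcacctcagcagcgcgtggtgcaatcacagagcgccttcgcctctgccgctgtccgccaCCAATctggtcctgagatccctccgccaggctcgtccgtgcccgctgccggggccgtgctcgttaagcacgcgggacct
Msmo1, chr8:64733529-64733828, minus strand: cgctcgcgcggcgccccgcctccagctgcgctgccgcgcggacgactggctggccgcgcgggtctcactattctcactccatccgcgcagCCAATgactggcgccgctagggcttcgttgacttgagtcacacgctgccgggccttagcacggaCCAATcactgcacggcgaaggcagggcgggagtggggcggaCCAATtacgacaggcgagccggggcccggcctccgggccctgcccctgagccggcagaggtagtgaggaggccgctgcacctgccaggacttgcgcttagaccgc
Sc5d, chr9:42264251-42264550, minus strand: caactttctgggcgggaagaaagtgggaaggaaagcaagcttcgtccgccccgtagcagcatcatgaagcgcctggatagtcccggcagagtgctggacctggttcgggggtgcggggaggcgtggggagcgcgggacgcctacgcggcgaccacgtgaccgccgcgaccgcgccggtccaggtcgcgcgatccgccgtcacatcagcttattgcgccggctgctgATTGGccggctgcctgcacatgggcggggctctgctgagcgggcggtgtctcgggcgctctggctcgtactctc

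Of the members, 26 had a promoter window in the RefSeq table; Fdps, Fdft1, Sqle, Stard4, Abcg1, Scd1 and Scd2 had no entry. CCAAT, searched on both strands, lay in 22 of the 35 windows of these members (62.9%), and in 37.4% of all 32851 windows. Counted by gene it lay in at least 1 window of 21 of the 26 members and of 15 of the 16 synthesis enzymes. A gene with several windows has more chances of a match, and the share of all genes was not computed. The counts by gene therefore cannot be set against the 37.4%. GGGCGG, the core bound by Sp1, lay in 25 of the 35 windows (71.4%), and in 35.7% of all windows. GCGTG, the core bound by AHR, lay in 17 of the 35 (48.6%), and in 32.4% of all windows. The strict sterol response element lay in 1 of the 35, that of Hmgcs1 at position -137 from the start site, and in 1.24% of all windows. The direct repeat element of LXR, in its strict form, lay in 0 of the 35 and in 0.0152% of all windows. The sterol response and LXR elements have open positions, where some letters would complete a shorter motif of this set. The match in Hmgcs1, TCACCCCAC, holds none of the shorter ones, and a match is a description of letters only.

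The labels were checked on Clec4a4, Ahr and cell type markers before the results. Clec4a4, which defined the sorts, averaged 9.18 ± 0.62 in mCherry+ and 7.53 ± 0.62 in mCherry- (SD, n = 5 each), and stood at 3.93 in the array labelled Ahr KO, 9.14 in WT Clec4a4+ and 5.57 in WT Clec4a4-. Its adjusted p in the reporter sort was 0.0804 by limma without and 0.00205 with the replicate number as a block. Ahr averaged 11.10 ± 0.44 in mCherry+ and 10.09 ± 0.64 in mCherry-, higher in 5 of 5 pairs of arrays that share a replicate number although the groups overlapped, with an adjusted p of 0.347 without and 0.00234 with the block. In the single arrays Ahr stood at 11.12 in the array labelled Ahr KO, 11.11 in WT Clec4a4+ and 11.08 in WT Clec4a4-, so its signal did not mark the knockout; the sources used here do not give where the probes lie relative to the deleted part. Of 9 eosinophil markers, 8 lay above the reporter table's median of 5.36, Ccr3 at 10.65 ± 0.59 in mCherry+ and 10.53 ± 0.73 in mCherry- among them, while Epx, the eosinophil peroxidase, lay below it at 4.53 ± 0.21 in mCherry+ and 4.44 ± 0.09 in mCherry-. The array means of the 9 eosinophil markers ran from 7.66 to 8.54 in mCherry+ and from 7.53 to 8.71 in mCherry-. With the block 2 eosinophil markers were called, in opposite directions. Itgax, the integrin CD11c, averaged 10.92 ± 0.44 in mCherry+ and 10.01 ± 0.46 in mCherry-, with an adjusted p of 0.262 without and 0.00382 with the block. Prg2, the major basic protein, averaged 5.90 ± 0.73 in mCherry+ and 6.92 ± 0.99 in mCherry-, with an adjusted p of 0.689 without and 0.0438 with the block.

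Markers of other cells were read in the same arrays. The array means of 16 epithelial markers ran from 8.39 to 11.10 in mCherry+ and from 8.11 to 11.24 in mCherry-, with all 16 above the table median and 0 called in either direction. Both arrays of replicate number 1 were the lowest of these, and only in them did the epithelial mean lie below the eosinophil mean. Of 9 neutrophil markers, 2 were called lower, in both fits. S100a8 averaged 5.41 ± 0.76 in mCherry+ and 10.69 ± 1.05 in mCherry-, a difference of -5.27, and S100a9 differed by -5.03, both without overlap. The median difference over the 9 was -0.10. Array means of the other 7 ran from 5.79 to 6.24 in mCherry+ and from 5.86 to 6.43 in mCherry-, and Ly6g, Camp, Ngp, Ltf and Mmp8 lay below the table median. Retnlg averaged 12.09 ± 0.29 in mCherry+ and 12.19 ± 0.25 in mCherry-, and Cxcr2 averaged 7.58 ± 0.64 in mCherry+ and 7.07 ± 0.70 in mCherry-, higher in 4 of 5 pairs; neither passed either fit. The array means of 9 macrophage markers ran from 6.09 to 6.68 in mCherry+ and from 6.20 to 6.86 in mCherry-, with C1qa, C1qb and Mrc1 below the table median. Among them Cd68, a lysosomal protein, averaged 8.79 ± 0.39 in mCherry+ and 7.51 ± 0.40 in mCherry- without overlap, with an adjusted p of 0.0535 without and 0.0429 with the block, and stood at 7.59 in the array labelled Ahr KO, 8.46 in WT Clec4a4+ and 7.37 in WT Clec4a4-. Cd14 differed by -2.18 and Csf1r by -0.40, each lower in 5 of 5 pairs, Csf1r without overlap, and neither passed either fit. Csf1r stood at 7.78 in the array labelled Ahr KO, 6.87 in WT Clec4a4+ and 7.88 in WT Clec4a4-. The median difference over the 9 macrophage markers was 0.17. Pecam1, from the stromal and endothelial list, differed by 0.78 with an adjusted p of 0.444 without and 0.0121 with the block, and Mki67, from the cell cycle list, by -0.63 with 0.637 and 0.0451. Top2a, also from the cell cycle list, differed by 0.80, higher in 4 of 5 pairs, and passed neither fit. The median difference was 0.16 over the 8 stromal and endothelial markers and -0.20 over the 8 cell cycle markers. The part of these markers' differences in the results below was not tested.

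Across the reporter arrays, 10 of the 19 enzymes of cholesterol synthesis were called higher in mCherry+ eosinophils with the replicate number as a block, 5 of them also without it, and 0 were called lower. They lay in the mevalonate part (4 of 8 enzymes) and in the squalene and sterol part (6 of 11). Brighter enzymes had larger differences, with a Spearman rho of 0.78 between mean level and difference over the 19. The median difference was 1.20 for the 10 at or above their median level and 0.51 for the 9 below it. The part of signal level in which steps were called was not tested. The array mean of the 19 enzymes ran from 8.01 to 8.51 in mCherry+ and from 7.04 to 7.69 in mCherry-, without overlap, and their median difference was 1.05 on the log2 scale, against -0.01 over all 21395 genes. By sign 17 of the 19 were higher, as were 10175 of all 21395 genes. Of the 19, 13 were higher in all 5 pairs of arrays that share a replicate number, as were 5.97% of all genes. For 11, all mCherry+ arrays lay above all mCherry- arrays, as for 0.832% of all genes. Among all 33 members, 5 were called higher and 0 lower by limma at an adjusted p under 0.05 without a replicate term, where 0.145% of all genes were called higher and 0.21% lower. With the replicate number as a block, 14 were called higher and 0 lower, where 1.01% of all genes were called higher and 0.748% lower. At an unadjusted p under 0.05, limma without the block had 18 members higher and 0 lower, where 3.8% of all genes were higher and 3.52% lower. With the block it had 18 higher and 2 lower, Abca1 and Mylip, where 6.25% of all genes were higher and 5.59% lower.

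**Figure D1:**
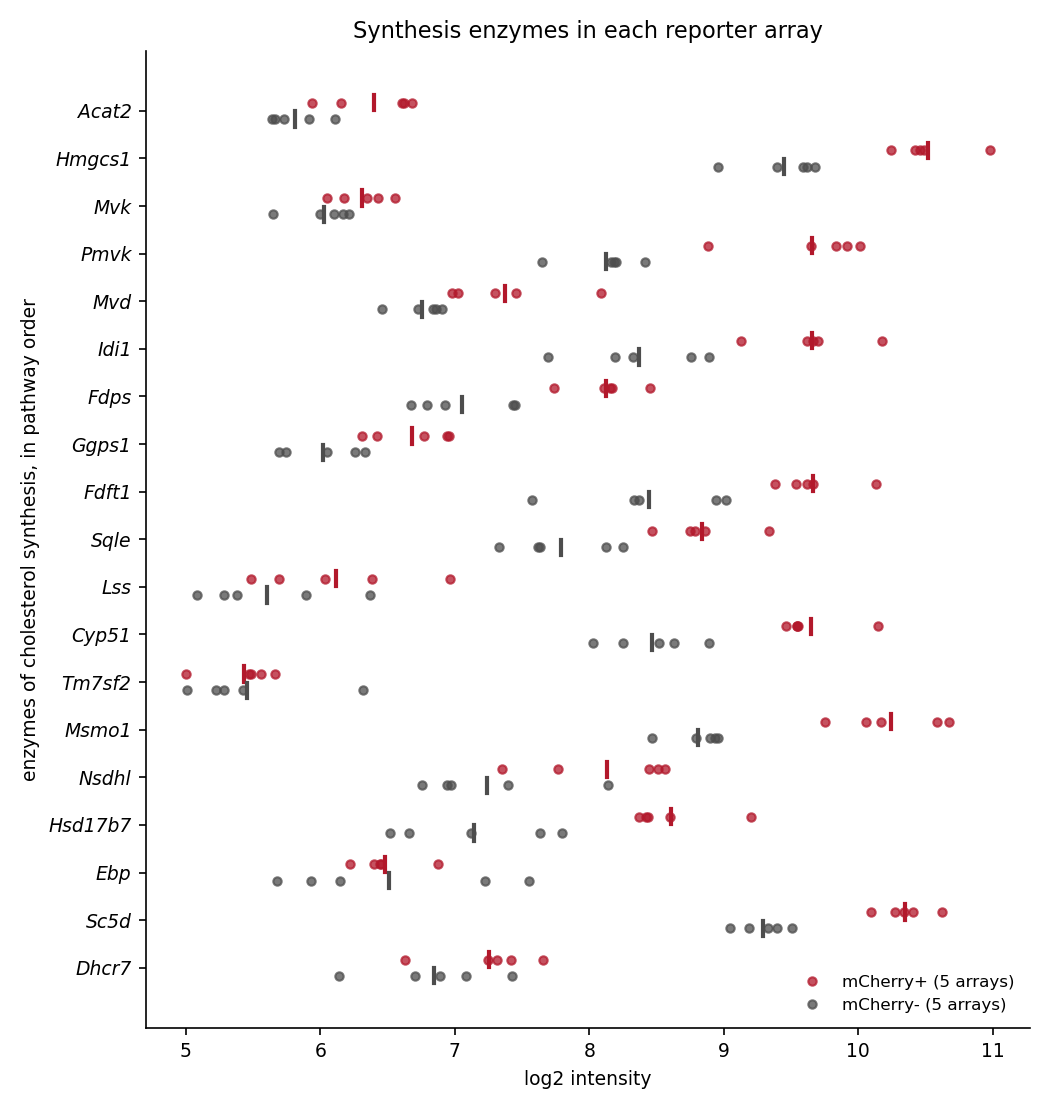
Log2 intensity (x axis) of the 19 synthesis enzymes in pathway order (y axis); points are the 5 mCherry+ arrays (red, upper row of each gene) and the 5 mCherry- arrays (grey, lower row), and ticks are group means. For 11 enzymes every red point lies right of every grey point; for Tm7sf2 and Ebp the groups overlap and their means lie close together.

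In the mevalonate part, Pmvk had the largest difference of all members and Hmgcs1 was the other enzyme called in both fits. Hmgcs1, the cytosolic HMG-CoA synthase, had values of 10.46, 10.49, 10.24, 10.42 and 10.98 in the mCherry+ arrays, against 8.96, 9.40, 9.68, 9.59 and 9.62 in the mCherry- arrays. All mCherry+ values lay above all mCherry- values, and the difference was 1.07 ± 0.18 (SE), with an adjusted p of 0.0313 by limma and 0.00865 with the block. Pmvk, phosphomevalonate kinase, had values of 9.65, 9.91, 10.02, 8.89 and 9.83 in the mCherry+ arrays, against 8.17, 8.20, 8.19, 7.65 and 8.42 in the mCherry- arrays. The groups did not overlap, although mCherry+ array 4 and mCherry- array 4 were the lowest of their groups, and the difference was 1.54 ± 0.23 (SE), with an adjusted p of 0.0183 and 0.000878 with the block. The call of Hmgcs1 without the block was lost on leaving out mCherry+ array 1, 2, 3 or 5 or mCherry- array 2, 3 or 5, with adjusted p-values up to 0.0982. That of Pmvk was lost on leaving out mCherry+ array 2, 3 or 5 or mCherry- array 2, with adjusted p-values up to 0.0665.

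Idi1 and Fdps passed the test with the block and not without it. Idi1, which isomerises isopentenyl diphosphate, had values of 9.66, 9.13, 9.62, 9.70 and 10.18 in the mCherry+ arrays, against 7.70, 8.32, 8.19, 8.89 and 8.75 in the mCherry- arrays. The groups did not overlap, with mCherry- array 1 the lowest, and the difference was 1.29 ± 0.25 (SE), with an adjusted p of 0.0618 without and 0.0108 with the block. Fdps, farnesyl diphosphate synthase, averaged 8.12 ± 0.26 in mCherry+ and 7.06 ± 0.36 in mCherry- (SD, n = 5 each), again without overlap, with an adjusted p of 0.0535 without and 0.0273 with the block. The other 4 enzymes of this part passed neither fit. Acat2, which joins acetyl-CoA units, differed by 0.59 (95% interval 0.21 to 0.97), Mvk, mevalonate kinase, by 0.29 (-0.04 to 0.62) and Mvd, the mevalonate diphosphate decarboxylase, by 0.61 (0.15 to 1.07). Ggps1, which branches off towards protein prenylation, differed by 0.66 (0.25 to 1.07) with an adjusted p of 0.0675 with the block.

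In the squalene and sterol part, Cyp51, Msmo1 and Sc5d were called in both fits. Cyp51, the lanosterol demethylase, had values of 9.54, 9.54, 9.47, 9.55 and 10.15 in the mCherry+ arrays, against 8.25, 8.52, 8.03, 8.63 and 8.89 in the mCherry- arrays. Msmo1, which oxidises the sterol C4 methyl groups, had values of 10.58, 10.17, 10.06, 9.75 and 10.67 in the mCherry+ arrays, against 8.47, 8.79, 8.93, 8.90 and 8.95 in the mCherry- arrays. Sc5d, lathosterol oxidase, had values of 10.41, 10.34, 10.10, 10.27 and 10.62 in the mCherry+ arrays, against 9.33, 9.40, 9.19, 9.51 and 9.05 in the mCherry- arrays. None of these 3 enzymes had overlapping groups, and mCherry+ array 5 was the highest array for each. The difference of Cyp51 was 1.19 ± 0.20 (SE), with an adjusted p of 0.0295 and 0.00234 with the block. Msmo1 differed by 1.44 ± 0.19 (SE), with an adjusted p of 0.00926 and 0.00608 with the block. Sc5d differed by 1.05 ± 0.14 (SE), with an adjusted p of 0.009 and 0.00504 with the block. Msmo1 and Sc5d stayed under an adjusted p of 0.05 with any single array left out, the highest being 0.0392 and 0.0404. Cyp51 lost its call without the block on leaving out mCherry+ array 1, 2, 3 or 5 or mCherry- array 1, 2 or 3, with adjusted p-values up to 0.0837.

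Fdft1, Sqle and Hsd17b7 passed with the block and not without it, each without overlap between the groups. Hsd17b7, the sterol 3-keto reductase, had values of 8.44, 8.37, 8.42, 8.60 and 9.21 in the mCherry+ arrays, against 6.52, 6.66, 7.12, 7.80 and 7.64 in the mCherry- arrays. Its mCherry- arrays 1 and 2 were the lowest, and its difference was 1.46 ± 0.27 (SE), with an adjusted p of 0.0535 without and 0.00554 with the block. Fdft1, squalene synthase, averaged 9.67 ± 0.28 in mCherry+ and 8.45 ± 0.58 in mCherry- (SD, n = 5 each), with an adjusted p of 0.0944 without and 0.0205 with the block. Sqle, squalene epoxidase, averaged 8.84 ± 0.31 in mCherry+ and 7.79 ± 0.38 in mCherry-, with an adjusted p of 0.0747 without and 0.0116 with the block. Nsdhl, the sterol C4 dehydrogenase, lay above its mCherry- partner in 5 of 5 pairs with a difference of 0.89 and passed neither fit, with an adjusted p of 0.0505 with the block. The other 4 enzymes also passed neither: Lss, lanosterol synthase, differed by 0.51 (-0.16 to 1.19) and Dhcr7, which completes one route to cholesterol, by 0.41 (-0.15 to 0.96). Tm7sf2, a sterol C14 reductase, differed by -0.02 (-0.52 to 0.48), and Ebp, the sterol isomerase, by -0.03 (-0.78 to 0.72). Both intervals include changes of more than 0.4 in either direction, so these arrays do not show that Tm7sf2 and Ebp were alike in the subsets.

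**Figure D2:**
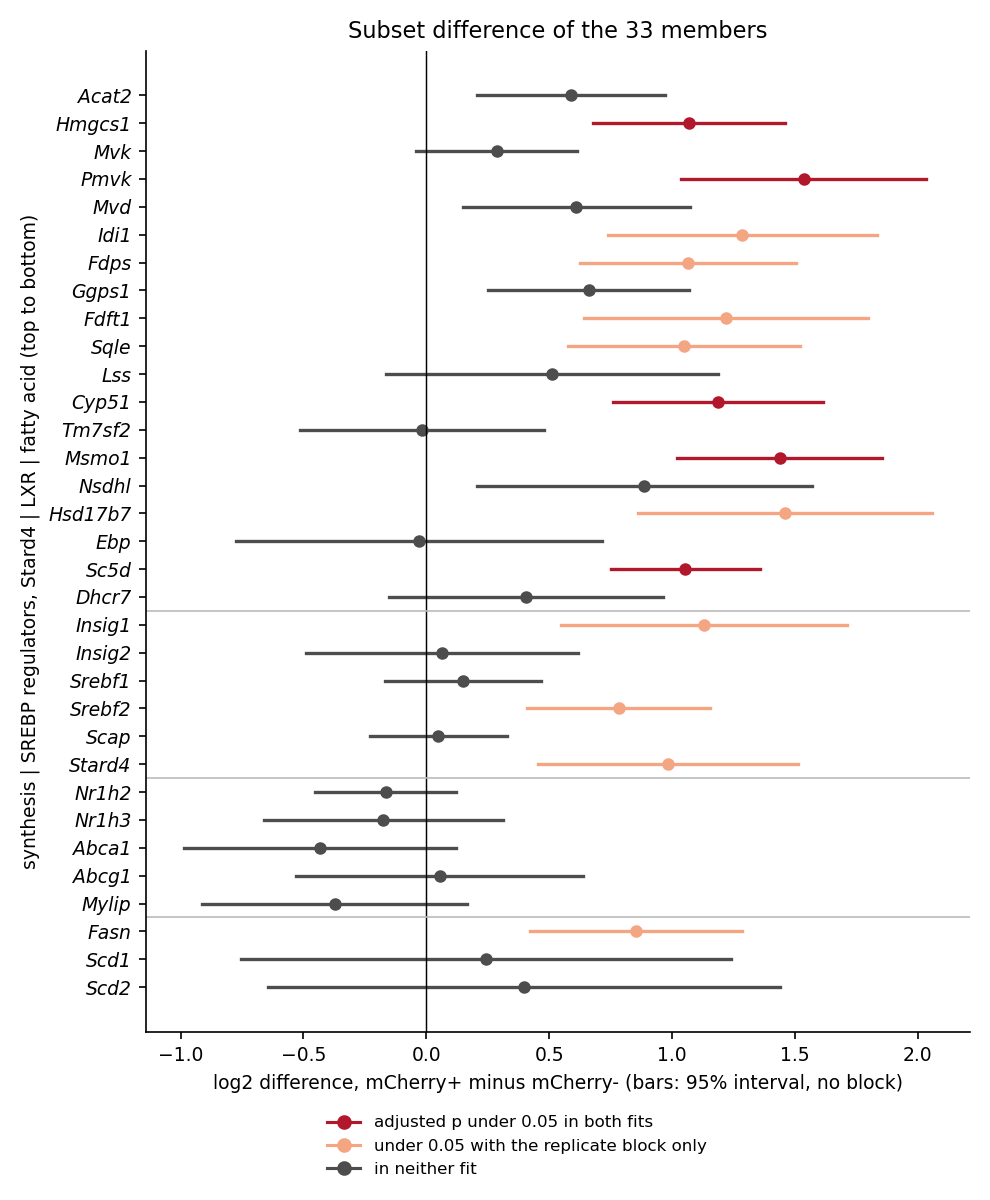
Log2 difference, mCherry+ minus mCherry- (x axis), of the 33 members (y axis) with 95% intervals from the fit without a block; colour gives the fits in which the adjusted p was under 0.05. The 5 members called in both fits are synthesis enzymes, and the LXR genes lie near or left of 0.

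Of the SREBP regulators, Insig1 and Srebf2 passed with the block, while Insig2, Srebf1 and Scap passed neither fit. Insig1, itself a target of SREBP and the anchor of SCAP in the endoplasmic reticulum, had values of 10.19, 10.36, 10.13, 10.07 and 10.89 in the mCherry+ arrays, against 8.55, 8.84, 9.03, 9.90 and 9.66 in the mCherry- arrays. The groups did not overlap, but mCherry- array 4 lay close below its mCherry+ partner, and the difference was 1.13 ± 0.27 (SE), with an adjusted p of 0.14 without and 0.0283 with the block. Srebf2, which encodes SREBP-2, had values of 9.97, 9.94, 9.75, 9.28 and 10.03 in the mCherry+ arrays, against 9.14, 8.89, 8.90, 8.83 and 9.29 in the mCherry- arrays. Its mCherry+ array 4 lay inside the range of the mCherry- arrays, and it was higher in 5 of 5 pairs by 0.83, 1.05, 0.85, 0.45 and 0.74, with an adjusted p of 0.0944 without and 0.0105 with the block. Srebf1, which encodes SREBP-1, differed by 0.15 (-0.17 to 0.47), Insig2 by 0.06 (-0.49 to 0.62) and Scap by 0.05 (-0.23 to 0.33). Stard4, a sterol transfer protein, differed by 1.08, 1.09, 1.05, 0.78 and 0.93 in the 5 pairs, a mean of 0.99, with an adjusted p of 0.161 without and 0.00413 with the block.

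The LXR genes passed neither fit, and their median difference was -0.18. Abca1, a cholesterol exporter, had values of 6.31, 5.97, 5.46, 6.10 and 5.65 in the mCherry+ arrays, against 7.20, 6.12, 5.81, 6.28 and 6.24 in the mCherry- arrays. The groups overlapped, although every mCherry+ array lay below its mCherry- partner, and the difference was -0.43 ± 0.25 (SE), with an adjusted p of 0.812 without and 0.271 with the block. Mylip, the ubiquitin ligase also called IDOL, was likewise lower in 5 of 5 pairs, with a mean difference of -0.37 and an adjusted p of 0.32 with the block. Nr1h2, LXR-beta, differed by -0.17, Nr1h3, LXR-alpha, by -0.18 and Abcg1, another exporter, by 0.06, and Nr1h3 lay below the table median. Among the fatty acid enzymes, Fasn, fatty acid synthase, averaged 7.60 ± 0.33 in mCherry+ and 6.75 ± 0.28 in mCherry- (SD, n = 5 each) without overlap, with an adjusted p of 0.13 without and 0.0177 with the block. Scd1 and Scd2, stearoyl-CoA desaturases, differed by 0.24 (-0.76 to 1.24) and 0.40 (-0.64 to 1.44) and passed neither fit. Over all 33 members, 18 were higher in 5 of 5 pairs, as were 5.97% of all genes, and 2 were lower in 5 of 5, as were 5.95% of all genes. Groups did not overlap for 13 members that were higher, as for 0.832% of all genes, and for 0 that were lower, as for 1.07% of all genes.

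The pairs varied in the size of the difference. The median of the 19 synthesis enzymes was 1.08, 0.81, 0.85, 0.63 and 1.28 in pairs 1 to 5, while the median of all genes stayed between -0.04 and 0.02. In pairs 1 and 5 all 19 enzymes were higher in mCherry+, and in pairs 2, 3 and 4 it was 17, 16 and 16. Pair 4 gave the smallest difference for 13 of the 19, and pair 1 the largest for 9. Cyp51 differed by 1.29, 1.02, 1.44, 0.92 and 1.26 in the 5 pairs, and Fdft1 by a wider range of 2.09, 1.25, 1.05, 0.52 and 1.19. The epithelial marker mean differed by 0.28, -0.07, -0.18, -0.13 and -0.30 in the same pairs. S100a8 differed by -5.02, -5.83, -3.52, -6.31 and -5.69 in them, Retnlg by -0.17 to -0.01, and Cxcr2 by 1.92, 0.40, 1.33, -1.40 and 0.32. Leaving out both arrays of number 1, the pair lowest in epithelial markers, left 2 members called, Msmo1 and Sc5d.

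**Figure D3:**
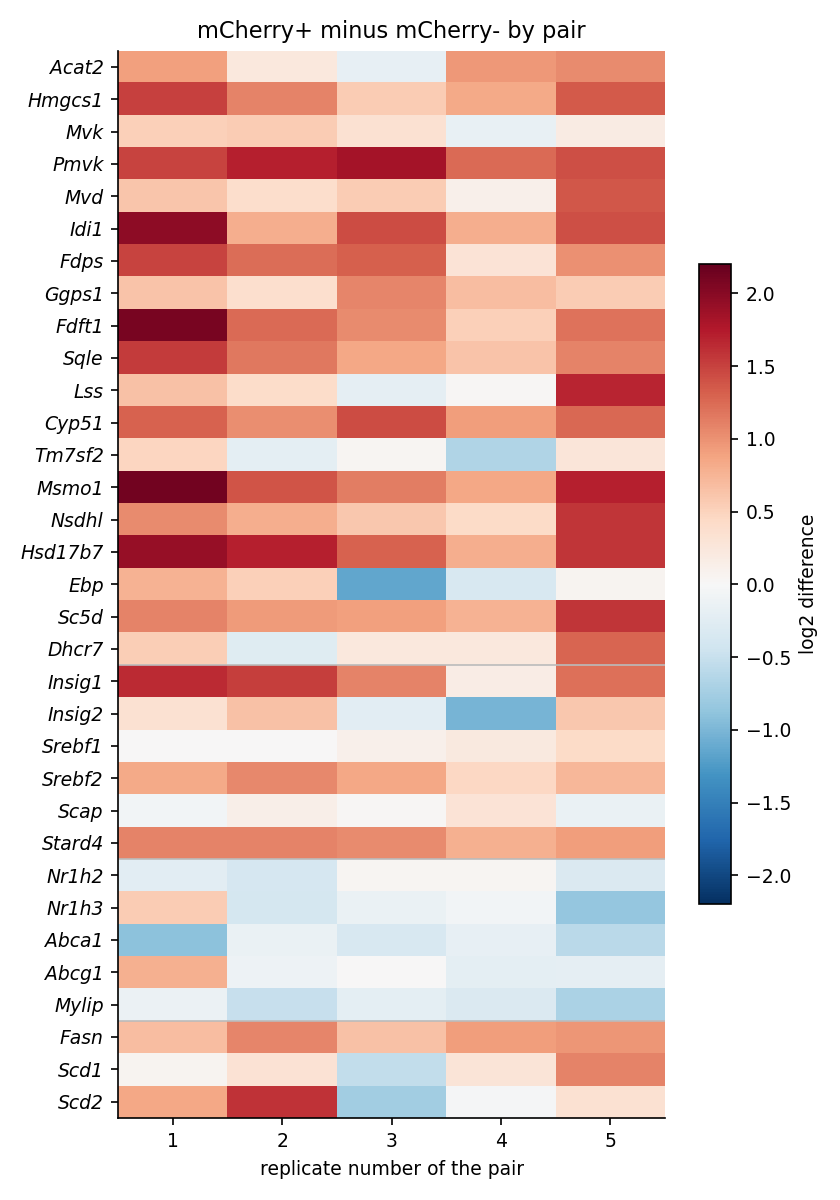
Log2 difference, mCherry+ minus mCherry- (colour, red higher in mCherry+), of the 33 members (rows, grey lines between the synthesis, regulator with Stard4, LXR and fatty acid groups) in the 5 pairs of reporter arrays that share a replicate number (columns). The synthesis rows are red in most pairs, palest in pair 4, and the LXR rows are mostly pale blue.

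A further 53 genes were read in 5 lists, of SREBP processing, oxysterol synthesis, LXR partners, fatty acid synthesis and the isoprenoid branch. Without the block limma called 0 of them higher and 0 lower, where 0.145% of all genes were called higher and 0.21% lower. With it 2 were called higher and 0 lower, where 1.01% of all genes were called higher and 0.748% lower. Their median difference was 0.06. At an unadjusted p under 0.05, limma without the block had 5 of them higher and 0 lower, where 3.8% of all genes were higher and 3.52% lower. With the block it had 9 higher and 0 lower, where 6.25% of all genes were higher and 5.59% lower. Lpin1, a phosphatidate phosphatase, differed by 1.51, with an adjusted p of 0.154 without and 0.0122 with the block. Smpdl3a, from the list of LXR partners, differed by 0.67, with an adjusted p of 0.767 without and 0.0455 with the block. Among 8 genes of SREBP processing, 5 of oxysterol synthesis and 14 of the isoprenoid branch, 0 passed either fit.

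The WT arrays, 1 per subset, gave the same comparison without a reporter allele and without a test. Of the 33 members, 8 were 2-fold or more higher in WT Clec4a4+ and 0 lower, where 0.64% of all 25003 genes were higher and 1.03% lower by that measure. All 8 were synthesis enzymes, and the median over the 19 enzymes was 0.41, against 0.00 over all genes. Pmvk stood at 7.29 in the array labelled Ahr KO, 8.16 in WT Clec4a4+ and 6.37 in WT Clec4a4-. Fdps stood at 6.92 in the array labelled Ahr KO, 7.98 in WT Clec4a4+ and 6.34 in WT Clec4a4-. Fdft1 stood at 7.69 in the array labelled Ahr KO, 8.19 in WT Clec4a4+ and 6.68 in WT Clec4a4-. In each of these the WT Clec4a4+ array was highest and the array labelled Ahr KO lay between the WT arrays. Msmo1 stood at 7.60 in the array labelled Ahr KO, 8.48 in WT Clec4a4+ and 6.96 in WT Clec4a4-. Sqle and Dhcr7 had the same order, with WT differences of 1.15 and 1.10. Hmgcs1 stood at 6.13 in the array labelled Ahr KO, 7.28 in WT Clec4a4+ and 6.15 in WT Clec4a4-, the other 2 arrays lying side by side below WT Clec4a4+. Cyp51 stood at 7.37 in the array labelled Ahr KO, 7.12 in WT Clec4a4+ and 5.81 in WT Clec4a4-, the array labelled Ahr KO being the highest. These 8 were taken for their wide WT difference, which leaves more room for a value in between. Over all 19 enzymes the array labelled Ahr KO lay between the WT arrays, in either order, for 7, as for 29.8% of all genes.

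The 14 members called with the block in the reporter sort were all higher by sign in WT Clec4a4+, by 0.20 to 1.80. Over all genes, 12157 of 25003 were higher by sign in that comparison. Because the list was selected with both comparisons in view, the shared direction is no independent support. Side by side, Hsd17b7 differed by 0.32 between the WT arrays and 1.46 in the reporter sort, Sc5d by 0.20 and 1.05, and Idi1 by 0.45 and 1.29. Over both sorts, 21 of the 33 members were higher in each, as were 25.7% of the 20845 genes on both models. Insig1 differed by 0.95, Srebf2 by 0.33 and Stard4 by 0.58 between the WT arrays. Abca1 was lower in WT Clec4a4+, at 7.02 in the array labelled Ahr KO, 6.89 in WT Clec4a4+ and 7.78 in WT Clec4a4-. Scap differed by -0.54 and Srebf1 by -0.31.

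**Figure D4:**
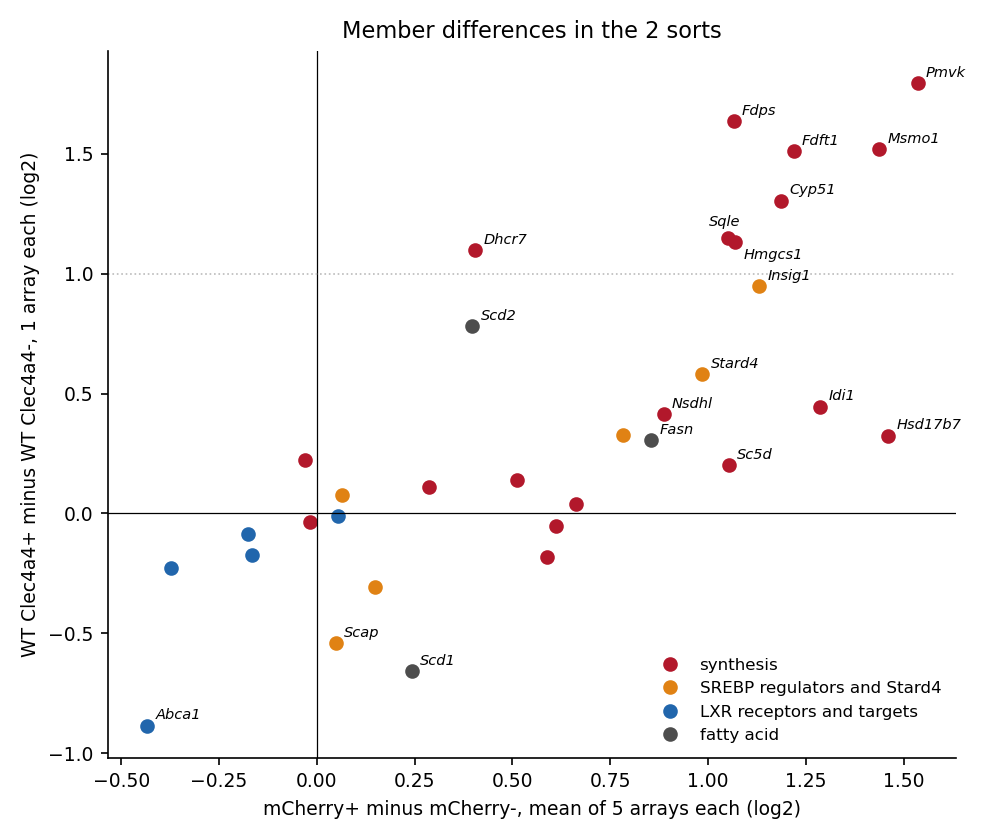
Log2 difference of the 33 members in the reporter sort (x axis, mCherry+ minus mCherry-, 5 arrays each) and between the WT arrays (y axis, Clec4a4+ minus Clec4a4-, 1 array each); colour gives the role and the dotted line 2-fold. The 8 members above the line are synthesis enzymes, and Hsd17b7, Idi1 and Sc5d lie far right but low.

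The array labelled Ahr KO held Clec4a4- eosinophils, and its 2 comparisons share that array, and 1 array each with the comparison of the WT subsets, so each is given on its own. Against WT Clec4a4-, 3 members were 2-fold or more higher and 0 lower, where 0.596% of all genes were higher and 0.772% lower. These were Cyp51, by 1.56, Scd2, by 1.14, and Fdft1, by 1.00, and the median over the 19 enzymes was 0.09. With array values renormalized Fdft1 stood at 0.998, just under 2-fold. Scd2 stood at 8.83 in the array labelled Ahr KO, 8.47 in WT Clec4a4+ and 7.69 in WT Clec4a4-, on a probe set named by accession. Its difference was 0.08 with the mean of probe sets, and -0.21 without naming by accession, where another probe set stands for it. Against WT Clec4a4+, 0 members were 2-fold or more higher and 2 lower, where 0.496% of all genes were higher and 0.496% lower. These 2 were Hmgcs1, by -1.16, and Fdps, by -1.06, and the median over the 19 enzymes was -0.41. The mean of the 19 enzymes stood at 6.37 in the array labelled Ahr KO, 6.75 in WT Clec4a4+ and 6.07 in WT Clec4a4-. The array labelled Ahr KO lay between the WT arrays, in either order, for 7 of the 19 enzymes and for 29.8% of all genes. Srebf2 stood at 9.22 in the array labelled Ahr KO, 9.09 in WT Clec4a4+ and 8.76 in WT Clec4a4-. Of the further lists, Pltp, a phospholipid transfer protein and LXR target, stood at 7.68 in the array labelled Ahr KO, 6.79 in WT Clec4a4+ and 6.40 in WT Clec4a4-. Coq2, of the ubiquinone branch, stood at 5.65 in the array labelled Ahr KO, 4.12 in WT Clec4a4+ and 4.14 in WT Clec4a4-, the WT values both under the table median of 4.80, so it was at least 1.80-fold higher. The epithelial marker mean was 5.69, 5.44 and 5.88 in the array labelled Ahr KO, WT Clec4a4+ and WT Clec4a4-. S100a8 stood at 5.73 in the array labelled Ahr KO, 3.27 in WT Clec4a4+ and 6.70 in WT Clec4a4-, and the part of these markers in these differences was not tested. Acat2, Lss, Nr1h3 and Scd1 lay under the table median in at least 1 of the 3 arrays, and no fold is given for them.

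**Figure D5:**
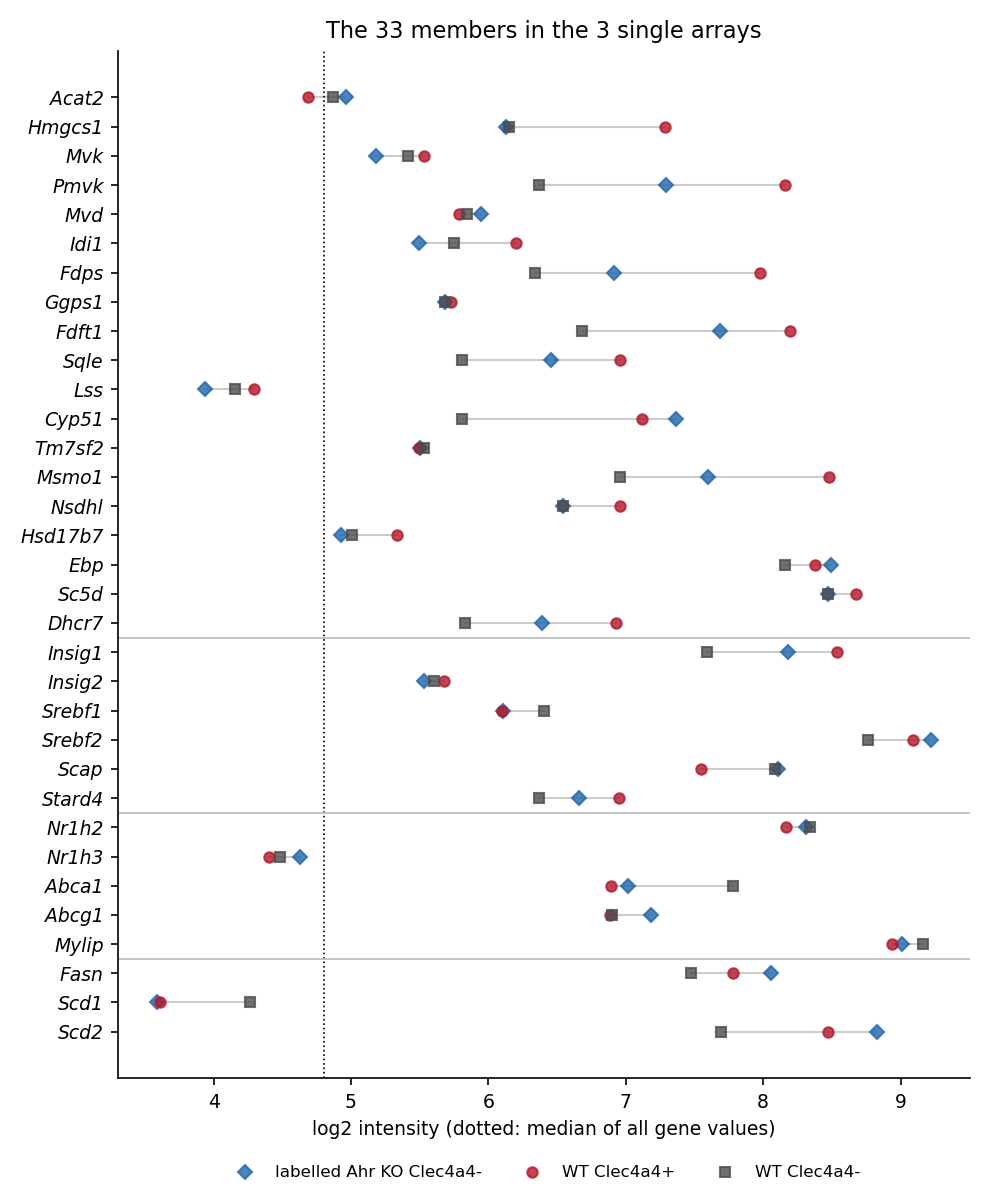
Log2 intensity (x axis) of the 33 members (y axis) in the array labelled Ahr KO Clec4a4- (blue diamonds), WT Clec4a4+ (red circles) and WT Clec4a4- (grey squares), 1 array each, with the median of all gene values dotted at 4.80. Red lies furthest right for most synthesis enzymes that differ, with blue between red and grey for Pmvk, Fdps, Fdft1, Sqle, Msmo1 and Dhcr7. In either order, blue lies between for 7 of the 19 synthesis enzymes, as for 29.8% of all genes.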

How the data were processed

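RNA of sorted eosinophils was measured on 13 arrays. Per the labels' protocols, total RNA was extracted with an RNeasy Micro kit and amplified to biotin-labelled cDNA from a few nanograms. The deposited values are log2 intensities made by the authors with RMA (background correction, quantile normalization and probe set summary), per the submitters' processing notes; the sources used here give no version.

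Probe sets were named by Entrez identifier, symbol or accession in the authors' tables, through a RefSeq gene table of GRCm38.p6: 24450 of 35556 in the reporter table and 27200 of 28360 in the other. The brightest probe set stood for a gene, leaving 21395 and 25003 genes. Idi1 in the reporter table and Nr1h3 and Scd2 in the other were named by accession. No arrays held identical values, and arrays of a group correlated at 0.919 to 0.958.

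The reporter groups were compared with limma 3.58.1 in R 4.3.3 (intensity trend, robust moderation, two-sided, Benjamini-Hochberg over all genes, called under 0.05). Both fits were also run on simulated arrays that were independent of each other. Those held no pairing, so they cannot show how the fits behave on paired arrays. The labels' replicate numbers paired the arrays: deviations from the group means correlated at 0.659, 0.165, 0.171, 0.527 and 0.199 in pairs 1 to 5, so blocked values are given beside each named gene whose call they change. The single arrays have no test; genes were counted at 2-fold or more if the brighter array was at or above the table median of 4.80. The number of arrays limits the precision.

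The members and lists were chosen with earlier results of these data known. All members, Clec4a4 and Ahr may be named, and of the further genes those called in either fit or 2-fold or more apart between single arrays. A pair of further lists held genes, called ones among them, that are not reported here; both lists were left out whole, after the fits were seen, so the further genes are not all those planned. Alternatives tried were the block, each array left out, number 1 left out, plain moderation, the mean of probe sets, a filter on dim genes, another quantile normalization, other floors and, added after seeing the data, no naming by accession.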

Additional observations from a re-analysis of the deposited data

Results flagged for a closer look

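Among 66 groups of 5 reporter arrays, 5 held an array far from the other 4 by Dixon's criterion; chance flags about 1 in 20 groups. Cyp51 reached 10.15 in mCherry+ array 5, with the next array at 9.55, and Hsd17b7 reached 9.21 in the same array, with the next at 8.60. Tm7sf2 was at 5.00 in mCherry+ array 2, with the next at 5.47. Insig2 reached 6.85 in mCherry- array 4, with the next at 5.75. Mylip reached 7.25 in mCherry+ array 1, with the next at 6.38.

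Mvd differed by -0.05 and Srebf1 by -0.31 between the WT Clec4a4+ and WT Clec4a4- arrays, opposite in sign to all 5 reporter pairs, whose mean differences were 0.61 and 0.15. The difference between the sorts was not tested.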

How the results depend on the processing

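The median difference of the synthesis enzymes kept its direction in every setting run and lay between 0.93 and 1.11 with single arrays left out. The counts of calls moved most. Members called higher numbered 5, 2 to 8 with single arrays left out, 14 with the replicate block, 2 without both arrays of number 1 and 9 with the filter on dim genes; members called lower stayed at 0. Over all genes, 31 higher and 45 lower calls became 216 and 160 with the replicate block, 8 to 68 and 21 to 61 with single arrays left out, 12 and 28 without number 1, and 53 and 70 with the dim filter. The cause was not tested. Among the members, the further genes and the markers, the replicate block changed no call other than those given above.

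Reversed signs arose for uncalled members near 0. Leaving out single arrays gave Tm7sf2 up to 0.09 and 0.20 (lowest -0.13), Ebp 0.04, 0.15 and 0.23 (lowest -0.24), Insig2 -0.024 and -0.015 (highest 0.298), Scap -0.013 (highest 0.084), Nr1h3 0.019 (lowest -0.37), Abcg1 -0.20 and -0.02 (highest 0.20) and Scd1 -0.061 (highest 0.54). Without number 1, Insig2 was at -0.005 and Abcg1 at -0.13; with the mean of probe sets Scap was at -0.061. Scd2, 1.14 higher in the array labelled Ahr KO than in WT Clec4a4-, fell to 0.08 with the mean of probe sets and -0.21 without naming by accession, where another probe set stands for it. Quantile normalization again moved Insig1 between the WT arrays to 1.00 and Fdft1 between the array labelled Ahr KO and WT Clec4a4- to 0.998.

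The series matrix held the same values as the tables and gave no separate alternative, and the 3 single arrays allow no leave-one-out. Signal near or under the table median limits Nr1h3 and Scd1 in both tables, Tm7sf2 in the reporter arrays, and Acat2 and Lss in the single arrays.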
